A study of Mus musculus with 6 samples.

Results

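The genes described here encode the machinery that docks, primes, fuses and recycles synaptic vesicles. They are 33 genes named by their known function: the SNARE proteins and the proteins that recycle them, the calcium sensors, complexins and a priming factor, proteins of the vesicle membrane and surface, the vesicular glutamate transporters, the scaffold of the active zone, and proteins of vesicle endocytosis. All 33 were found among the 25419 genes of the expression table, and all 33 reached the mean of 0.1 FPKM (fragments scaled to transcript length and to the size of the library) that was required for a test, as did 19465 genes in all. RNA-sequencing was done on cochlear basilar membranes of C57BL/6 mice, an inbred strain with early-onset age-related hearing loss (AHL), at 1 month of age (young, 3 samples) and at 12 months of age (old, 3 samples). Each sample was a mix of the tissue of 3 mice, and no treatment or genetic change was named for either group. The comparison asks how the RNA of the release machinery differed between the ages.

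In vesicle release, a SNARE protein on the vesicle winds around SNARE proteins on the plasma membrane and pulls the membranes together. Calcium entering through channels at the active zone binds a sensor on the vesicle, and the fused membrane is then retrieved by clathrin-mediated endocytosis. In the cochlea, inner hair cells release glutamate onto spiral ganglion neurons from ribbon synapses that rely on otoferlin and on the transporter VGLUT3 rather than on the neuronal sensors and transporters. Spiral ganglion neurons have their cell bodies in the cochlea and their own release sites in the brainstem, so their cell bodies hold RNA of proteins that act elsewhere, whereas the efferent fibres that reach the hair cells have their cell bodies in the brainstem.

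The 6 samples held an estimated 12560000 to 15630000 fragments each, and no 2 columns of the table were copies of each other. Markers of hair cells and of neurons were present. Ocm, the calcium buffer oncomodulin of outer hair cells, had means of 135 ± 41.1 FPKM in young and 58.4 ± 11.4 FPKM in old samples (SD, n = 3). Nefl, a neurofilament of neurons, had means of 189 ± 55.8 FPKM in young and 87.3 ± 2.43 FPKM in old samples. Young replicate 3 stood apart from the other young samples in the neuronal genes. It was the lowest young sample in 28 of the 33 members, against 32.0% of all genes tested, and young replicate 2 was the highest in 27 of 33, against 33.1%. The median coefficient of variation of the members was 27.3% among the young samples and 8.86% among the old ones, against 14.3% and 12.8% over all genes tested. Nothing in the labels says that samples with the same number belong together, and the p-values measure only the spread between mixed samples. In bulk tissue, fewer cells of a type and less RNA per cell cannot be told apart. How much nerve tissue each dissected sample held is not given in the sources used here.

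Of the 33 members, 14 fell and 1, Sncg, rose (limma with Benjamini-Hochberg adjustment over all genes tested, adjusted p below 0.05), and 18 did not pass the threshold. Among all genes tested, 9.45% passed, 3.81% in the lower direction and 5.65% in the higher direction. In 27 members all old samples lay below all young samples, against 16.1% of all genes tested, and in 2 members, Sncg and Syngr1, all old samples lay above, against 17.6%. The old and young samples overlapped for Vamp2, Cplx2, Rab3a and Synj1. The median log2 change over the members was -0.77, whereas it was 0.01 over all genes tested. At an unadjusted p below 0.05, 28 members were lower and 2 were higher, against 13.1% and 14.6% of all genes tested.

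**Figure D1:**
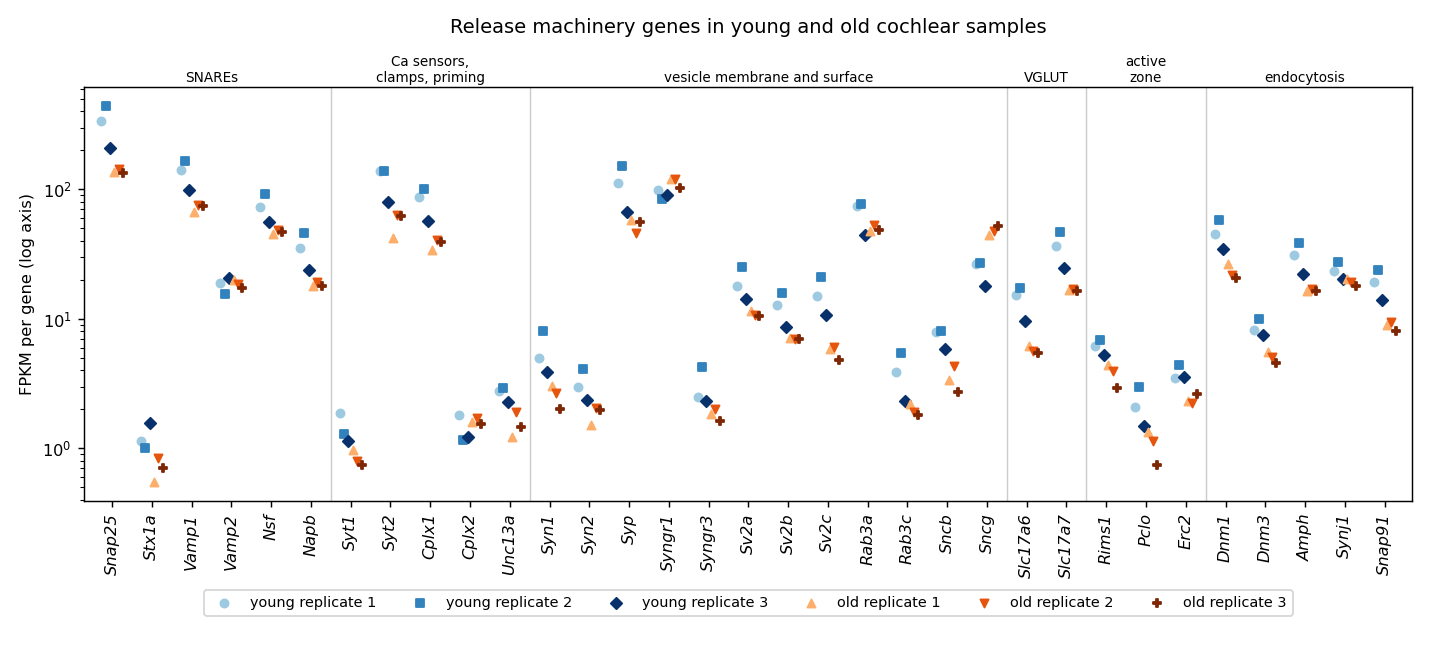
FPKM of each of the 33 genes (log axis) in each of the 3 young samples (blue) and 3 old samples (orange to brown), ordered by role. The old samples lie below all young samples in 27 genes, and above them in Syngr1 and Sncg.

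The count of falling members depended on single samples. Without young replicate 3 it was 20 and included all 14, whereas it was 0 without young replicate 1, 1 (Sv2c) without young replicate 2, and 0 without any one of the old samples. The count over all genes tested depended on single samples as well. It was 741 in the lower direction with all samples, and between 16 and 822 with a sample left out. At an unadjusted p below 0.05, all 14 remained lower whichever sample was left out. Without a trend of variance on expression in limma, no member passed (smallest adjusted p = 0.0626), and 27 lay lower where p was not adjusted.

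Summed over the members, young replicates 1, 2 and 3 held 1408, 1672 and 967 FPKM, and old replicates 1, 2 and 3 held 782, 823 and 785 FPKM. Every old sample was thus below the lowest young sample, young replicate 3. Snap25 alone made up between 21.7% and 26.3% of the sum in the young samples and between 17.2% and 17.5% in the old samples. The summed markers of several cell types were also lower in every old sample than in every young sample. The summed FPKM of 20 neuronal markers was 1124 to 1811 in the young samples and 794 to 865 in the old samples. That of 15 hair cell markers was 855 to 1094 and 490 to 556, and that of 10 Schwann cell markers was 853 to 1301 and 722 to 756. Calb2, which spiral ganglion neurons also express, held 504 to 838 FPKM of the young and 303 to 349 FPKM of the old hair cell sums. The mean log2 level of the hair cell markers was 3.55, 3.24 and 3.54 in young replicates 1, 2 and 3 and 2.61 to 2.63 in the old samples. By this mean, young replicate 2 was the lowest young sample, whereas it was the highest for the summed members. The summed FPKM of 10 macrophage markers was 128 to 198 in the young samples and 696 to 778 in the old ones. The part of these cell types in the change of the members was not tested.

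**Figure D2:**
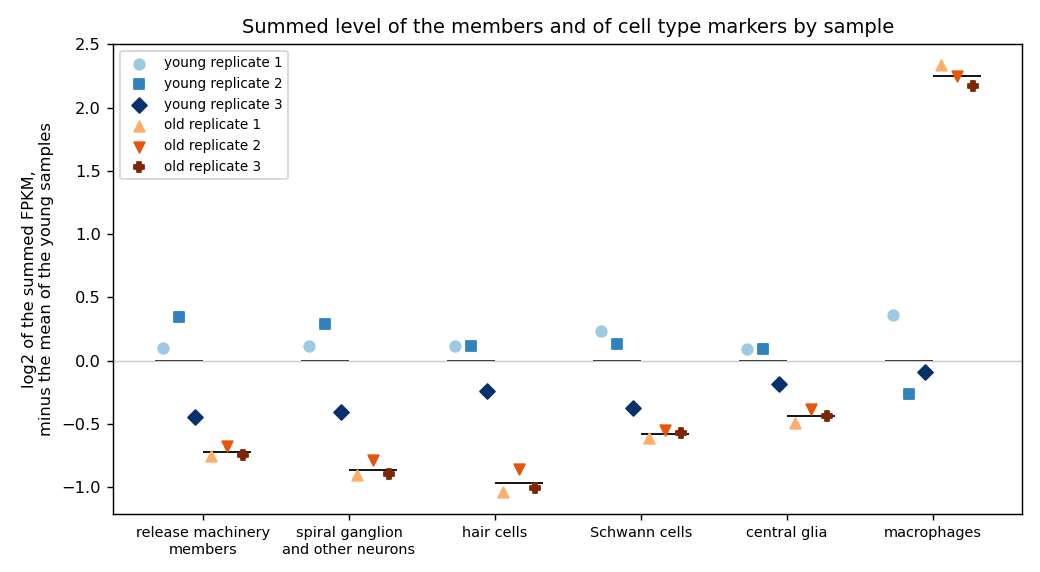
Log2 of the summed FPKM of the 33 members and of 5 lists of cell type markers in each sample, minus the mean of the 3 young samples, with short lines at the group means. The sums of the members and of neuronal, hair cell, Schwann cell and central glial markers are lower in every old than in every young sample. The sum of the macrophage markers is higher. Calb2, which neurons also express, holds most of the hair cell sum, and Cnp, Slc1a3 and Slc1a2 most of the central glial sum. By mean log2 level the central glial markers overlap between the ages (2.56 in old replicate 2, 2.07 in young replicates 2 and 3).

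Among the 6 SNARE genes and recycling factors, 3 fell (Snap25, Vamp1 and Napb), none rose, and the median log2 change was -0.80. Snap25 encodes the plasma membrane SNARE that contributes a pair of helices to the fusion complex, and it was the most abundant member. Young replicates 1, 2 and 3 held 335, 439 and 210 FPKM of Snap25, and old replicates 1, 2 and 3 held 135, 144 and 135 FPKM. The groups did not overlap, and the young samples spread far more widely than the old ones. Snap25 fell by 1.19 on the log2 scale (SE 0.23, limma adjusted p = 0.0280), to 0.421 of the young mean.

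Vamp1, one of the vesicle SNAREs, had 140, 166 and 99.2 FPKM in the young samples and 66.7, 76.3 and 74.4 FPKM in the old samples. All old values lay below young replicate 3, and Vamp1 fell by 0.87 on the log2 scale (SE 0.17, limma adjusted p = 0.0288). Its close relative Vamp2 did not show such a difference. Vamp2 had 18.8, 15.7 and 20.7 FPKM in the young samples and 19.9, 18.7 and 17.4 FPKM in the old samples, with groups that overlapped (log2 change 0.03, SE 0.12, limma adjusted p = 0.894). The sign of the Vamp2 change turned when young replicate 2 or old replicate 1 was left out (-0.08 and -0.02).

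Napb, the adapter that recruits the ATPase to spent SNARE complexes, had 35.0, 45.9 and 23.8 FPKM in the young samples and 17.9, 19.2 and 18.0 FPKM in the old samples. Its groups did not overlap, and it fell by 0.87 on the log2 scale (SE 0.21, limma adjusted p = 0.0460). Nsf, the ATPase itself, had 73.4, 92.8 and 56.2 FPKM in the young samples and 45.5, 48.3 and 46.9 FPKM in the old samples. Its groups did not overlap either, but it just missed the threshold (log2 change -0.63, SE 0.16, limma adjusted p = 0.0549). Stx1a, a plasma membrane SNARE, was among the lowest members, at 1.00 to 1.58 FPKM in the young samples and 0.552 to 0.847 FPKM in the old samples. These values stand for an estimated 13 to 37 fragments per sample, and the log2 change of -0.73 (SE 0.30) did not pass (limma adjusted p = 0.162).

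Snap25 is made with either of 2 versions of its exon 5, which give proteins with different SNARE helices. The exons are shown because nearly all of the Snap25 signal came from one of them. They lie on the plus strand of chromosome 2 (GRCm38), are both 118 bases long, and differ at 31 aligned bases, which are in capitals. The first is the exon of Snap25-202 (chr2:136769743-136769860) and the second the exon of Snap25-201 (chr2:136770057-136770174), both coding.
Snap25-202: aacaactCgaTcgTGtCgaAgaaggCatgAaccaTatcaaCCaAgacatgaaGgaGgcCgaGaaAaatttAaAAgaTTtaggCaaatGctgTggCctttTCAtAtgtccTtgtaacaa
Snap25-201: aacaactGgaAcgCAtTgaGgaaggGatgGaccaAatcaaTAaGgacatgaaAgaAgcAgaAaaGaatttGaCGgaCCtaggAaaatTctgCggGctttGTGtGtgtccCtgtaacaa
Snap25-201 carried nearly the whole gene, with means of 328 FPKM in the young and 138 FPKM in the old samples. Snap25-202 reached at most 0.349 FPKM in any young sample and was at about 0 in young replicate 3 and in every old sample, too low for a test.

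Of the 5 genes for calcium sensing, clamping and priming, 2 fell (Syt2 and Cplx1), none rose, and the median log2 change was -0.76. Cplx1 encodes a complexin, a small protein that binds assembled SNARE complexes. It had 87.7, 101 and 57.1 FPKM in the young samples and 33.96, 40.8 and 39.0 FPKM in the old samples. The groups did not overlap, and Cplx1 fell by 1.07 on the log2 scale (SE 0.20, limma adjusted p = 0.0249). Cplx2, the second complexin, had 1.80, 1.16 and 1.22 FPKM in the young samples and 1.59, 1.71 and 1.55 FPKM in the old samples. These values overlapped, and the log2 change of 0.22 (SE 0.24) did not pass (limma adjusted p = 0.585).

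Syt2, a fast calcium sensor of many hindbrain and sensory relay neurons, had 139, 138 and 79.9 FPKM in the young samples and 42.2, 63.9 and 62.3 FPKM in the old samples. Its groups did not overlap, and it fell by 1.06 on the log2 scale (SE 0.25, limma adjusted p = 0.0414). Much of this level, 76.2% in young samples, was assigned to the 383-nt transcript Syt2-203, which is close in length to a sequenced fragment, and FPKM of such short transcripts can be inflated. Over transcripts of at least 600 nt, Syt2 had means of 28.4 and 13.4 FPKM and fell by 1.03 on the log2 scale. Syt1, the forebrain counterpart, had 1.87, 1.29 and 1.15 FPKM in the young samples and 0.977, 0.799 and 0.747 FPKM in the old samples. Its groups did not overlap, but the log2 change of -0.69 (SE 0.28) did not pass (limma adjusted p = 0.159). Unc13a, which primes docked vesicles, had 2.28 to 2.92 FPKM in the young samples and 1.23 to 1.91 FPKM in the old samples, without overlap (log2 change -0.76, SE 0.23, limma adjusted p = 0.0765).

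The 12 genes of the vesicle membrane and surface were the most mixed group. Of these, 3 fell (Sv2a, Sv2c and Sncb), 1 rose (Sncg) and 8 did not pass, with a median log2 change of -0.77. Sv2c, one of the 3 SV2 glycoproteins that span the vesicle membrane, showed the largest fall of all members. It had 15.1, 20.9 and 10.7 FPKM in the young samples and 5.86, 6.05 and 4.82 FPKM in the old samples. The groups did not overlap, and Sv2c fell by 1.42 on the log2 scale (SE 0.23, limma adjusted p = 0.0202), to 0.358 of the young mean.

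Sv2a fell by 0.77 (SE 0.19, limma adjusted p = 0.0491), from 14.2 to 25.1 FPKM in the young samples to 10.5 to 11.4 FPKM in the old samples, close to the threshold. Sv2b, at 8.58 to 15.8 FPKM and 6.94 to 7.08 FPKM, had the same size of change without passing (log2 change -0.77, SE 0.21, limma adjusted p = 0.0600). Neither Sv2a nor Sv2b overlapped between the ages.

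The synucleins, small proteins of the presynaptic terminal, went apart. Sncb, beta-synuclein, had 7.94, 8.01 and 5.89 FPKM in the young samples and 3.35, 4.35 and 2.73 FPKM in the old samples, and fell by 1.06 on the log2 scale (SE 0.21, limma adjusted p = 0.0278). Sncg, gamma-synuclein, which is also abundant in peripheral neurons, had 26.5, 27.2 and 17.9 FPKM in the young samples and 44.3, 47.5 and 52.2 FPKM in the old samples. Both genes separated the ages, in opposite directions, and Sncg rose by 1.03 on the log2 scale (SE 0.16, limma adjusted p = 0.0191), to 2.01 times the young mean. Without any one of the old samples the adjusted p of Sncg lay between 0.0524 and 0.0681. Sncb rested on an estimated 38 to 118 fragments per sample and Sncg on 124 to 425.

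Syngr1, synaptogyrin 1, a membrane protein of synaptic and other small vesicles, was the second gene that was higher in all old samples. It had 98.2, 84.0 and 91.1 FPKM in the young samples and 121, 121 and 103 FPKM in the old samples. The log2 change of 0.33 (SE 0.09) did not pass over all transcripts (limma adjusted p = 0.0603), and over transcripts of at least 600 nt it was 0.34 and passed (limma adjusted p = 0.0345). Syngr3, its relative, had 2.34 to 4.22 FPKM in the young samples and 1.64 to 2.01 FPKM in the old samples (log2 change -0.65, SE 0.26, limma adjusted p = 0.151). Syngr1 and Syngr3 thus lay on opposite sides of 0, with neither past the threshold. Syngr2, a synaptogyrin of many tissues that is not among the members, had 23.7, 21.9 and 26.6 FPKM in the young samples and 30.5, 30.4 and 34.3 FPKM in the old samples and rose (log2 change 0.40, SE 0.10, limma adjusted p = 0.0452).

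Syp, synaptophysin, the classical marker of the vesicle membrane, had 113, 151 and 67.3 FPKM in the young samples and 57.5, 45.7 and 55.8 FPKM in the old samples. Its groups did not overlap, but the log2 change of -0.99 (SE 0.27) did not pass (limma adjusted p = 0.0611). The 494-nt transcript Syp-202 held 72.4% of the young level. Over transcripts of at least 600 nt, Syp had means of 30.5 and 16.3 FPKM and passed (log2 change -0.86, limma adjusted p = 0.0215). An antisense gene, Gm14703, overlaps 16.8% of the exon bases of Syp, and whether strand was used in the counting is not given in the sources used here.

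The synapsins, which tie vesicles into the reserve pool, were lower in all old samples but did not pass. Syn1 had 4.94, 8.07 and 3.87 FPKM in the young samples and 3.00, 2.65 and 2.01 FPKM in the old samples (log2 change -1.06, SE 0.29, limma adjusted p = 0.0606). Syn2 had 2.36 to 4.14 FPKM and 1.53 to 2.05 FPKM (log2 change -0.72, SE 0.25, limma adjusted p = 0.111). Of the Rab3 GTPases, which mark vesicles for docking, Rab3a had 74.3, 76.4 and 44.2 FPKM in the young samples and 48.0, 53.3 and 48.2 FPKM in the old samples. Young replicate 3 lay below every old sample, so the groups overlapped (log2 change -0.34, SE 0.20, limma adjusted p = 0.313). Without young replicate 3, the log2 change of Rab3a was -0.60 and passed (limma adjusted p = 0.0114). Rab3c had 2.31 to 5.43 FPKM in the young samples and 1.82 to 2.21 FPKM in the old samples (log2 change -0.86, SE 0.30, limma adjusted p = 0.118).

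**Figure D3:**
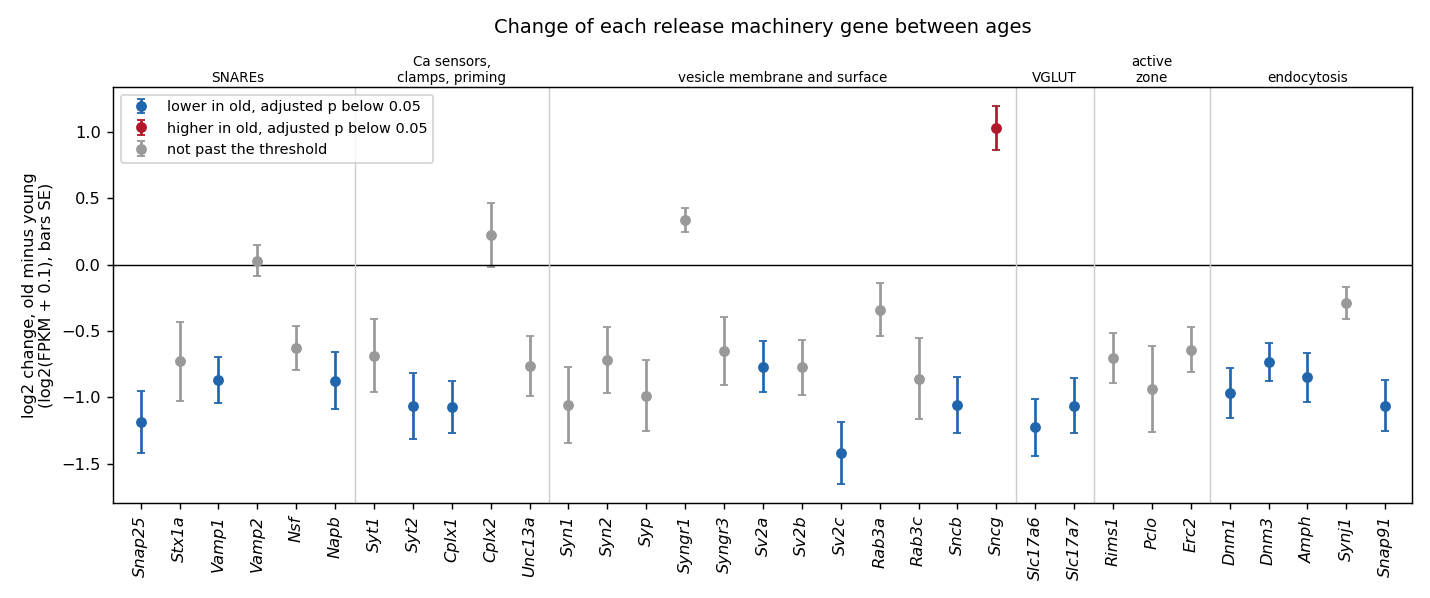
Log2 change between old and young samples (dots, on the log2(FPKM + 0.1) scale) with its SE (bars) for each gene by role. Blue marks the 14 genes that fell, red the 1 that rose (Sncg), and grey the 18 that did not pass; 29 of the 33 changes lie below 0.

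Both vesicular glutamate transporters fell. Slc17a7 encodes VGLUT1, which loads glutamate into vesicles of spiral ganglion neurons, and had 36.7, 47.2 and 24.7 FPKM in the young samples and 16.6, 17.1 and 16.4 FPKM in the old samples. Slc17a6 encodes VGLUT2 and had 15.2, 17.2 and 9.54 FPKM in the young samples and 6.19, 5.68 and 5.40 FPKM in the old samples. Neither gene overlapped between the ages, and the old samples of Slc17a7 lay within 1 FPKM of each other. Slc17a6 fell by 1.23 on the log2 scale (SE 0.21, limma adjusted p = 0.0223) and Slc17a7 fell by 1.06 (SE 0.21, limma adjusted p = 0.0279).

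None of the 3 active zone scaffold genes passed, although each was lower in all old samples. Rims1, which links vesicles to calcium channels, had 6.22, 6.90 and 5.30 FPKM in the young samples and 4.38, 3.99 and 2.92 FPKM in the old samples (log2 change -0.70, SE 0.19, limma adjusted p = 0.0596). Erc2 had 3.47, 4.43 and 3.55 FPKM in the young samples and 2.33, 2.25 and 2.63 FPKM in the old samples (log2 change -0.64, SE 0.17, limma adjusted p = 0.0574). Pclo, the giant scaffold Piccolo, had 2.08, 2.96 and 1.502 FPKM in the young samples and 1.34, 1.15 and 0.747 FPKM in the old samples (log2 change -0.94, SE 0.32, limma adjusted p = 0.112). Over transcripts of at least 600 nt, an alternative chosen after seeing the data, Rims1 and Erc2 passed (limma adjusted p = 0.0421 and 0.0443). Their own levels and log2 changes were the same there, and 18464 instead of 19465 genes were tested. Nsf, Syn1 and Sv2b likewise passed in that setting on unchanged levels (limma adjusted p = 0.0355, 0.0409 and 0.0401).

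Of the 5 endocytosis genes, 4 fell (Dnm1, Dnm3, Amph and Snap91) and none rose, with a median log2 change of -0.85. Dnm1 encodes dynamin 1, the GTPase that pinches off the budding vesicle, and had 45.1, 57.8 and 34.4 FPKM in the young samples and 26.3, 21.8 and 20.7 FPKM in the old samples. It fell by 0.97 on the log2 scale (SE 0.19, limma adjusted p = 0.0264), and its relative Dnm3, at 7.47 to 9.91 FPKM and 4.55 to 5.55 FPKM, fell by 0.73 (SE 0.15, limma adjusted p = 0.0286). Neither dynamin overlapped between the ages.

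Amph, amphiphysin, which binds dynamin at the neck of the bud, had 31.3, 38.8 and 22.0 FPKM in the young samples and 16.3, 16.8 and 16.5 FPKM in the old samples, and fell by 0.85 (SE 0.19, limma adjusted p = 0.0365). Snap91 encodes AP180, which assembles the clathrin coat, and had 19.4, 24.0 and 13.9 FPKM in the young samples and 9.003, 9.51 and 8.12 FPKM in the old samples. It fell by 1.06 (SE 0.19, limma adjusted p = 0.0236), and neither Amph nor Snap91 overlapped between the ages. Synj1, the lipid phosphatase that strips the coat, differed less. Its 20.3 to 27.5 FPKM in the young samples overlapped with 17.9 to 20.4 FPKM in the old samples, and the log2 change of -0.29 (SE 0.12) did not pass (limma adjusted p = 0.171).

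To set the members against the neurons of the same sample, each member's log2 level was taken minus the mean log2 level of the 20 neuronal markers. This measure was chosen after the values had been seen and is given without a test. The neuronal markers themselves differed by -0.72 between old and young samples. This is a mean that includes Prph, Mapt and Map1b, whose log2 changes were above 0, and the median log2 change of the markers was -0.91. On this relative scale the median spread (SD) of a member among the young samples was 0.14, compared with 0.40 for the plain log2 level. In 8 members the old samples lay below all young samples, against 1.24% of all genes tested on the same scale. In 6 they lay above, against 51.4% of all genes tested. Subtracting markers whose mean is lower in old samples raises the difference of every gene on this scale. In 19 members the groups overlapped, and the median difference was -0.05. The members that lay lower were Snap25 (-0.47), Napb (-0.16), Cplx1 (-0.35), Sv2c (-0.70), Slc17a6 (-0.51), Slc17a7 (-0.34), Amph (-0.13) and Snap91 (-0.35). Those that lay higher were Vamp2 (0.75), Cplx2 (0.94), Syngr1 (1.05), Rab3a (0.38), Sncg (1.75) and Synj1 (0.43). On the plain log2 scale Napb and Amph changed by -0.87 and -0.85, less than the median neuronal marker. How many of the neuronal markers lay below on the relative scale was not counted. A lower place there thus does not set a member apart from other neuronal genes.

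**Figure D4:**
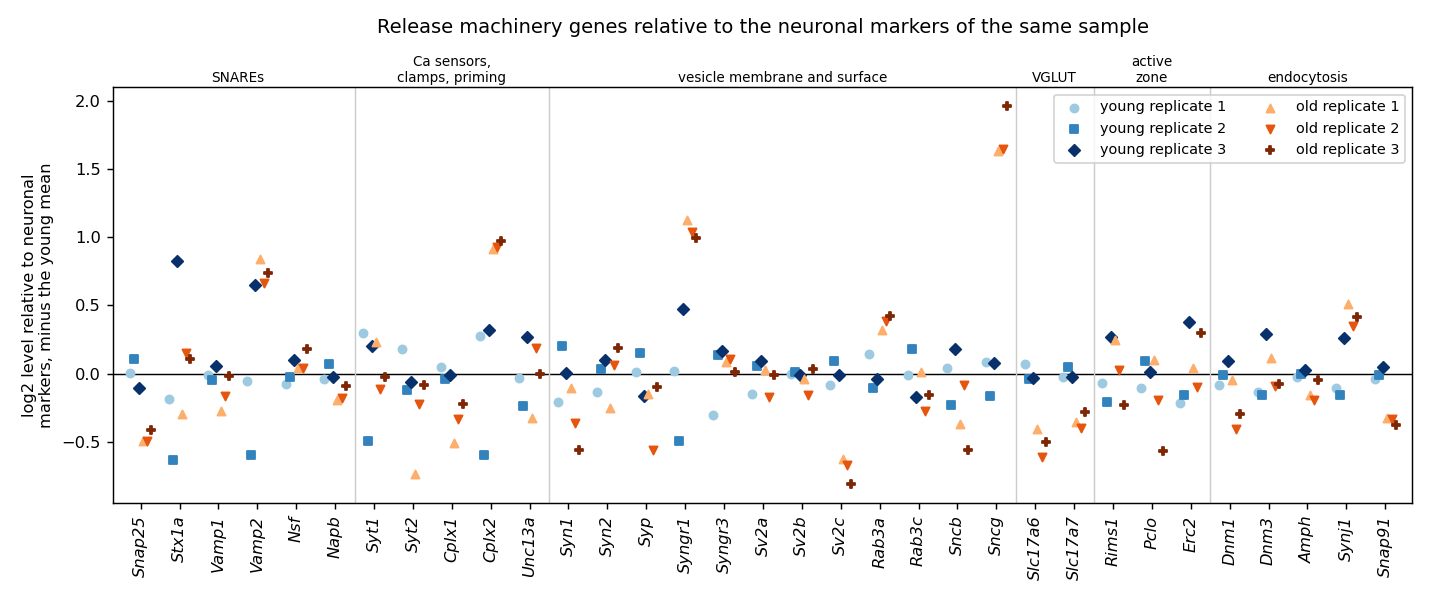
Log2 level of each gene relative to the mean log2 level of 20 neuronal markers in the same sample, minus the mean of the 3 young samples, for 3 young (blue) and 3 old (orange to brown) samples. Most genes scatter around 0 in both groups, with Sv2c, Slc17a6 and Snap25 below and Sncg, Syngr1 and Cplx2 above in the old samples.

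The log2 ratio of related members within a sample does not depend on a scaling factor between libraries. Of 11 such ratios, the old and young samples did not overlap in 6. For 3 samples against 3, the smallest two-sided p of the exact permutation test is 0.1, so no ratio could pass the threshold. The adjusted p over the 11 ratios was 0.183 for each of these 6. The ratio of Cplx1 to Cplx2 was 54.2 in young and 22.1 in old samples (geometric means, log2 difference -1.29), and that of Vamp1 to Vamp2 was 7.20 and 3.86 (log2 difference -0.90). The ratio of Sncb to Sncg was 0.310 and 0.0732 (log2 difference -2.08). Higher ratios in the old samples were those of Syngr1 to Syngr3 (0.98), Sv2a to Sv2c (0.65) and Rab3a to Rab3c (0.52).

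The other 5 ratios overlapped between the ages. VGLUT2 to VGLUT1 (Slc17a6 to Slc17a7) stood at 0.390 in young and 0.348 in old samples, Dnm1 to Dnm3 at 5.23 and 4.44, Syn1 to Syn2 at 1.72 and 1.36, Sv2a to Sv2b at 1.54 and 1.54, and Syt1 to Syt2 at 0.0130 and 0.0169. The pairs with a partner that differed little (Vamp1 and Vamp2, Cplx1 and Cplx2) were thus separated by age, and those of the dynamins, the glutamate transporters and Sv2a with Sv2b were not.

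**Figure D5:**
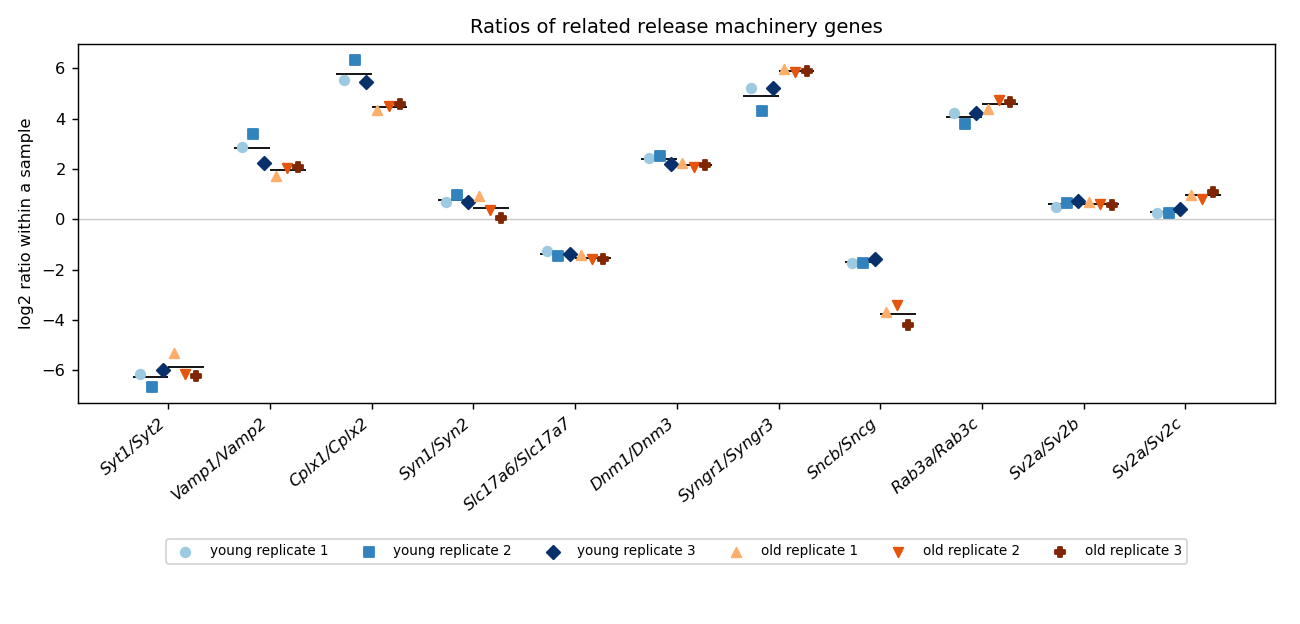
Log2 ratio of 11 pairs of related genes within each of the 3 young (blue) and 3 old (orange to brown) samples, with short lines at the group means. The ages do not overlap in Vamp1/Vamp2, Cplx1/Cplx2, Syngr1/Syngr3, Sncb/Sncg, Rab3a/Rab3c and Sv2a/Sv2c.

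The table listed 102 transcripts of the members, of which 81 were tested. None passed when p was adjusted over all transcripts tested (smallest limma adjusted p = 0.0583). Over all transcripts, 0.199% passed at the adjusted threshold in the lower direction and 0.549% in the higher direction. At an unadjusted p below 0.05, 33 member transcripts were lower and 3 were higher. The share of all transcripts at an unadjusted p was not taken, so these counts cannot be set against a background. In 43 member transcripts all old samples lay below all young samples, and in 3 above, compared with 12% and 12.6% of all transcripts tested. Where a gene had a pair of abundant transcripts, both were lower in all old samples for Amph (Amph-204 and Amph-201), Dnm1 (Dnm1-217 and Dnm1-205), Dnm3 (Dnm3-202 and Dnm3-201), Snap91 (Snap91-202 and Snap91-201), Sv2c (Sv2c-201 and Sv2c-203), Syp (Syp-202 and Syp-201) and Syt2 (Syt2-203 and Syt2-201). For Nsf, Slc17a7, Erc2, Sv2b, Synj1 and Vamp2, one of the pair was lower in all old samples and the other overlapped, and for Rab3a and Syn1 both overlapped.

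In Vamp1, the main transcript Vamp1-201 had 123, 146 and 79.9 FPKM in the young samples and 51.6, 58.7 and 54.7 FPKM in the old samples (log2 change -1.04, limma adjusted p = 0.0758). Vamp1-203, which ends in another coding part, had 13.2 to 17.8 FPKM and 10.3 to 14.9 FPKM, which overlapped. Its share of the gene was 11.9% in young and 17.1% in old samples. Vamp1-202, a minor transcript, was higher in all old samples, with 2.20 to 3.67 FPKM in young and 4.73 to 5.65 FPKM in old samples (log2 change 0.82, SE 0.23, limma adjusted p = 0.136), and its share was 2.11% and 6.97%.

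The higher level of Syngr1 in old samples came with its short transcript. Syngr1-202, of 819 nt, had 67.2, 55.0 and 63.6 FPKM in the young samples and 92.5, 92.6 and 75.7 FPKM in the old samples. The longer Syngr1-201, of 4180 nt, had 26.6, 27.7 and 23.0 FPKM in the young samples and 24.9, 24.3 and 24.3 FPKM in the old samples. Syngr1-202 was thus higher in all old samples (log2 change 0.49, SE 0.11, limma adjusted p = 0.0964), and Syngr1-201 overlapped between the ages (log2 change -0.07, SE 0.09, limma adjusted p = 0.738). The difference between the 2 transcripts was not tested. They end in different coding exons on the plus strand of chromosome 15 (GRCm38), and the last coding parts are shown because they tell the transcripts apart. That of Syngr1-202 is chr15:80113166-80113255 and that of Syngr1-201 is chr15:80115855-80116073.
Syngr1-202: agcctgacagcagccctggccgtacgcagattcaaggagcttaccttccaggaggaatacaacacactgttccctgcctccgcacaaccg
Syngr1-201: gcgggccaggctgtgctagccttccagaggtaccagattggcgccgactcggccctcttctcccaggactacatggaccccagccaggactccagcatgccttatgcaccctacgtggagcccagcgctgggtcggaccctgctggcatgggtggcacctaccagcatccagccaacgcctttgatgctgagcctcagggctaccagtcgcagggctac

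A list of 83 further genes of vesicle release, without the members, was compared in the same way, and 76 of them were tested. Of these, 11 fell (14.5%, against 3.81% of all genes tested) and 3 rose (3.95%, against 5.65%), and the median log2 change was -0.25. In 27 of the 76 all old samples lay below all young samples, against 16.1% of all genes tested. In 6 of the 76 they lay above, against 17.6%. Cadps, which primes dense-core vesicles, had 14.4 to 24.9 FPKM in the young samples and 7.35 to 8.63 FPKM in the old samples (log2 change -1.29, limma adjusted p = 0.0167). Sh3gl3, an endophilin of endocytosis, had a log2 change of -1.27 (limma adjusted p = 0.0196). Cadps and Sh3gl3 were lower in all old samples. Ap3b2, Scamp5, Cacna1e and Rims4 fell as well, with log2 changes of -0.78, -0.69, -0.92 and -1.18. Exons of Sh3gl3, Ap3b2 and Syngr2 are overlapped by other genes over 9.22%, 5.59% and 7.66% of their bases, so that their values are less certain.

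The 3 genes that rose were Syngr2, given above, Stxbp2 (log2 change 0.72, limma adjusted p = 0.0258) and Cadps2 (0.69, limma adjusted p = 0.0332). Stxbp2 encodes a syntaxin-binding protein of secretory and immune cells, and Cadps2 the close relative of Cadps. Otof and Slc17a8, which hair cells use for release, did not pass. Otof, otoferlin, had 5.37 to 7.72 FPKM in the young samples and 5.13 to 5.67 FPKM in the old samples, which overlapped (log2 change -0.33, limma adjusted p = 0.235). Slc17a8, VGLUT3, had 4.38 to 4.69 FPKM and 2.99 to 3.42 FPKM, without overlap (log2 change -0.47, limma adjusted p = 0.0711). Bsn, the scaffold Bassoon, did not overlap but did not pass (log2 change -0.96, limma adjusted p = 0.116).

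Of the 20 neuronal markers, 13 fell and none rose, with a median log2 change of -0.91. The list was not uniform, as 3 had log2 changes above 0 without passing: Prph (0.70), Mapt (0.58) and Map1b (0.03). Prph was higher in all old samples, and Mapt and Map1b overlapped between the ages. Pvalb, Stmn3 and Nefl were the most abundant, with log2 changes of -0.89, -1.07 and -1.07. Of 15 hair cell markers 6 fell, among them the abundant Calb2, which spiral ganglion neurons also express, and Ocm, with log2 changes of -1.11 and -1.18, whereas Myo6 did not pass. The hair cell transcription factor Gfi1 and the nicotinic receptor subunit Chrna9 fell most of the 15, with log2 changes of -2.05 and -1.498. Of 10 Schwann cell markers 5 fell, including the myelin gene Pmp22 but not Mbp. Of 10 macrophage markers 9 rose, including Lyz2, C1qa and C1qb. Of the 13 markers of central inhibitory, cerebellar and efferent neurons, 8 were tested and 1, Cbln1, rose. Chat, the defining enzyme of cholinergic efferents, was listed at 0 in every sample, and Gad2 and Slc6a5 were at most 0.193 and 0.0450 FPKM. The most abundant of this list included Ache and Pcp2, neither of which passed. Central glial markers had 1 gene that fell, Cnp, while Slc1a3 and Slc1a2 did not pass. Mobp, of central oligodendrocytes, was 4.54 FPKM in young replicate 1 and at most 0.773 FPKM elsewhere.

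Markers of tissue around the cochlea were compared too. Of 10 skeletal muscle markers, 9 were tested and Pvalb fell, which is also a neuronal marker. The other 8 had log2 changes above 0 and did not pass, and the median over the 9 was 1.11. Mylpf was higher in all old samples, with 0.831, 1.22 and 0.222 FPKM in the young samples and 7.73, 2.67 and 2.05 FPKM in the old samples (log2 change 2.29, limma adjusted p = 0.0670). Old replicate 1 was the highest sample for Mylpf and also for Tnnt3 (3.45 FPKM), Tnni2 (4.72 FPKM) and Acta1 (2.91 FPKM), which were at most 1.22, 0.745 and 0.668 FPKM in every other sample. Of 7 adipocyte markers, 3 were tested and Car3 rose, with 349 to 485 FPKM in the young samples and 771 to 1029 FPKM in the old samples. Fabp4 was at most 1.37 FPKM and Cidec at most 0.162 FPKM, and neither passed. The defining adipocyte genes were near or at 0, with at most 0.225 FPKM for Adipoq, 0.205 FPKM for Plin1 and 0.238 FPKM for Cfd in any sample, and Lep was listed at 0 in every sample. Of 8 osteoblast markers 2 fell, and the most abundant, Bglap2, Bglap and Alpl, did not pass. The summed FPKM of the osteoblast markers was 334, 83.0 and 176 in young replicates 1, 2 and 3 and 63.7 to 84.0 in the old samples.

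The windows from 250 bases before to 50 bases after the annotated starts of the members (RefSeq, GRCm38.p6) were searched on both strands for 5 short motifs. There were 39 windows for 30 members. The GC box GGGCGG was found in 25 of the 39 windows, compared with 35.7% of all 32851 promoters, and the TATA box TATAAA in 2 of the 39, compared with 13.6%. The left part of the RE1 element TTCAGCACC, the site of the repressor REST that silences neuronal genes in other cells, was found in the windows of Syn1 and Unc13a, compared with 0.371% of all promoters. Its right part GGACAGCGC was found in that of Unc13a, compared with 0.405%. The cAMP response element TGACGTCA was found in that of Syn1, compared with 1.79%. No marked motif overlapped another of the 5 in the windows of Syn1 and Unc13a. A match of letters is a description and not a binding site.

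The windows of Syn1 (chrX:20920869-20921168) and Unc13a (chr8:71671708-71672007), both on the minus strand and printed in the direction of the gene, are shown because they hold these rarer motifs, in capitals. In Syn1 the left part of RE1 lies 232 to 224 bases before the start and the cAMP response element 159 to 152 bases before it. In Unc13a both parts of RE1 lie on the opposite strand within the first 31 transcribed bases, with 8 bases between them, so that their reverse complements are printed.
Syn1: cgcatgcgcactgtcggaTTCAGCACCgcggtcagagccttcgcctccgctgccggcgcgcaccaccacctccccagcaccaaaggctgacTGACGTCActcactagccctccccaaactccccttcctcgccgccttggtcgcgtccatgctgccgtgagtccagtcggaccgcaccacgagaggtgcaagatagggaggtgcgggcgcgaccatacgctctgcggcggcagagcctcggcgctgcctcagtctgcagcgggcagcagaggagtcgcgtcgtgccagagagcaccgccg
Unc13a: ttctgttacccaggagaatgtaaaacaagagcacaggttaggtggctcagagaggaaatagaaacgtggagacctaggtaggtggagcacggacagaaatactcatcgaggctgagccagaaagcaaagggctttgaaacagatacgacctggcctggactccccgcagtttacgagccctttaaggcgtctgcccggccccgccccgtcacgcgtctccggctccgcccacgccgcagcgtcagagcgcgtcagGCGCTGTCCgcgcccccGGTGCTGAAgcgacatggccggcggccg
The log2 changes of Syn1 and Unc13a, -1.06 and -0.76, lie within the range of the members, and neither gene passed.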

How the data were processed

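RNA of 3 young and 3 old cochlear samples, each from 3 mice, had been made into directional libraries and sequenced as 150 bp paired-end reads by the authors. Per the submitters' processing notes, CASAVA 1.8, TopHat2 2.0.9, Cufflinks 2.1.1 and Cuffdiff 2.1.1 were used, and the paper's methods name GRCm38. The annotation release, the strand setting and the scaling between libraries are not given in the sources used here. The deposited values were FPKM per transcript and sample. No counts were used, and the depth of each sample was derived from how far apart its lowest FPKM values lie.

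Transcripts were assigned to genes by GENCODE M21 (55275 of 55679 Ensembl transcripts matched, and 404 were left out of the gene sums), and the FPKM of a gene was the sum over its transcripts. Genes or transcripts with a mean of at least 0.1 FPKM were compared with limma 3.58.1 in R 4.3.3 (lmFit, eBayes with trend) on log2(FPKM + 0.1), which understates the change of low genes, with age as the only term. Tests were two-sided, with Benjamini-Hochberg adjustment over all features tested and a threshold of 0.05. Cuffdiff, the test of the study, needs reads, which were not used here. The code was tested on simulated data.

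The members and lists were chosen with earlier results of these data known. Named were every member, the further release genes past the threshold (at most the 10 with the smallest p) with Otof, Slc17a8 and Bsn in any case, the 3 most abundant genes of each marker list, and the 2 most abundant transcripts of members that have at least 2 with a mean of 1 FPKM or more. Cbln1, Chat, Gad2, Slc6a5, Mobp, Gfi1, Chrna9, Syngr2, Tnni2, Acta1, Adipoq, Plin1, Cfd, Lep and the transcripts Snap25-202 and Vamp1-202 fall outside this rule and were named after their values were seen. The same holds for Prph, Mapt and Map1b. The values of some genes that the rule names are not reported here. The motifs and the relative measure were also chosen after values were seen. Exons of 10 members overlap another gene on the opposite strand, and none on the same strand. Sequences came from GENCODE M21 and, for promoters, from RefSeq (GRCm38.p6). Protein sequences were not used here. Python 3.11.15 (numpy 2.4.6, pandas 2.3.3, scipy 1.17.1, matplotlib 3.10.9) was used for the rest. The alternatives were other pseudocounts, filters, scalings and variance models, the replicate number as a block, samples left out one by one, the most abundant transcript per gene and, chosen after seeing the data, sums over transcripts of at least 600 nt.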

Additional observations from a re-analysis of the deposited data

How the results depend on the processing

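The direction of every member but Vamp2 was the same under all alternatives, and Vamp2 ranged from -0.0807 to 0.12 when single samples were left out. Members lower and higher numbered 14 and 1, 0 and 0 without a variance trend, 20 and 2 with sample weights, 9 and 2 for the most abundant transcript, 20 and 2 over transcripts of at least 600 nt (an alternative chosen after seeing the data), and 28 and 2 at an unadjusted p below 0.05. Counts over all genes are not given here for sample weights, the most abundant transcript or transcripts of at least 600 nt. The member counts under these settings can therefore not be set against a background. Leaving out single samples gave 0 to 20 lower and 0 to 1 higher. All genes lower and higher numbered 741 and 1099, 126 and 284 without a variance trend, 2554 and 2849 at an unadjusted p, and 16 to 822 and 46 to 949 with a sample left out, and without a filter 398 were lower. Further release genes lower and higher numbered 11 and 3, 0 and 0 without a variance trend, 27 and 6 at an unadjusted p, and 0 to 16 and 0 to 4 with a sample left out, and without a filter 5 were lower. Member transcripts lower and higher numbered 0 and 0, 1 and 1 at a mean of at least 1 FPKM or with sample weights, 1 and 0 without a variance trend, 33 and 3 at an unadjusted p, and 0 to 11 and 0 to 1 with a sample left out. For the most abundant transcript, the log2 difference was 1.55 for Syn1 to Syn2, 0.0650 for Dnm1 to Dnm3 and -0.0499 for Sv2a to Sv2b, the opposite sign to the gene sums. That of Sv2a to Sv2b, near 0 throughout, was also -0.00033 with quantile normalization, -0.0191 with a pseudocount of 1 and -0.0717 to 0.0539 with a sample left out. The causes were not tested.

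The young and old samples share replicate numbers, but the deviations of samples with the same number correlated at only 0.03, -0.09 and 0.04 over genes, so the numbers were not taken as pairs. With the replicate block, 9 members were lower and 1 higher, 290 genes lower and 440 higher, and 7 further release genes lower and 0 higher. Some members rest on few fragments, with an estimated 13 to 37 for Stx1a, 37 to 98 for Syngr3 and 45 to 100 for Syt1 per sample. Estimated fragments carry counting error only.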
